A study of Mus musculus with 20 samples.

Results

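The guanylate-binding proteins (GBPs) measured here were the 10 mouse genes Gbp2, Gbp3, Gbp4, Gbp5, Gbp6, Gbp7, Gbp8, Gbp9, Gbp10 and Gbp11. They were taken by symbol from a table of read counts per gene, and each of the 10 symbols matched 1 of the 56941 Ensembl gene rows. The table came from BV-2, an immortalised mouse microglial cell line, grown as wild-type cells or as cells labelled RGS10 knockout; RGS10 is a regulator of G-protein signalling. Each genotype was given plain medium (vehicle) or interferon gamma (IFNγ) at 10 ng/mL, in both cases for 48 h. This made 4 groups of 5 libraries of poly(A)-enriched RNA: wild type with vehicle, wild type with IFNγ, knockout with vehicle and knockout with IFNγ. In each group replicates 1 to 3 were labelled batch 1, replicate 4 batch 2 and replicate 5 batch 3, and values below are listed in that order. How the knockout was made, and whether it is 1 clone, is not given in the sources used here. The labels call the replicates biological without saying whether they were separate cultures, so p-values measure only the spread between these libraries.

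Libraries held 15866749 to 29157740 counts. The IFNγ libraries of batches 2 and 3 stood apart from the other 16: their scaling factors by the trimmed mean of M values (TMM) were 0.635 and 0.764 in wild type and 0.892 and 0.880 in knockout, against 1.01 to 1.12 elsewhere. Malat1, a nuclear RNA, stood at 955 to 1514 CPM (counts scaled to a library of 1e+06, here on plain totals) in these 4 libraries and at 51.4 to 386 CPM in the others. Rgs10 was read in every library: with vehicle it was at 63.0 CPM in wild-type against 28.2 CPM in knockout cells (a log2 difference of −1.17 ± 0.17, SE; adjusted p = 3.2e-05 by edgeR's quasi-likelihood test), and with IFNγ at 29.6 against 24.4 CPM (adjusted p = 0.13). The word knockout below therefore stands for the label. All 14 microglia and macrophage markers averaged at least 1 CPM in all 4 groups, with sums of 2556 to 8307 CPM. Summed fibroblast, T and B cell and astrocyte markers stayed under 1 CPM in every library. The summed endothelial and epithelial markers moved with IFNγ, from 0.864 to 2.05 CPM up to 2.67 to 17.0 CPM in wild type and from 0.243 to 0.902 CPM up to 1.76 to 11.3 CPM in knockout cells, with Pecam1 the highest. Oligodendrocyte markers summed to 2.44 to 6.68 CPM in wild-type against 1.37 to 2.33 CPM in knockout vehicle libraries, with Mbp the highest. Of 5 neuronal markers Rbfox3, Snap25 and Syt1 had no read in wild-type cells, and the sum, held by Map2 and Tubb3, was 4.90 to 24.9 CPM in wild-type against 0.323 to 2.99 CPM in knockout libraries. These sums thus moved with genotype or with IFNγ, and their part in the differences below was not tested.

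GBPs are large GTPases of the dynamin superfamily, and interferons, IFNγ above all, switch on their genes. The IFNγ receptor signals through the kinases JAK1 and JAK2 to gamma-activated sites (GAS) in its target genes, and it induces IRF1, which binds interferon-stimulated response elements (ISRE). In macrophages and microglia the proteins are known for assembling on pathogen-containing vacuoles and on bacteria, and for feeding bacterial lipopolysaccharide and DNA to the inflammasomes. Mouse Gbp2 and Gbp5 end in a CaaX box, a signal for attachment of a lipid anchor. The genes lie in clusters on chromosomes 3 and 5: in the annotation used (GENCODE vM21) Gbp2, Gbp3, Gbp5 and Gbp7 are on chromosome 3, all on the plus strand, and Gbp4, Gbp6, Gbp8, Gbp9, Gbp10 and Gbp11 are on chromosome 5, all on the minus strand. Gbp11 is annotated there as a polymorphic pseudogene, so it need not encode a protein in every strain.

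Promoter windows from RefSeq were at hand for the 4 members on chromosome 3 and not for Gbp4, Gbp6, Gbp8, Gbp9, Gbp10 and Gbp11. They are shown because these genes answer IFNγ and because GAS and ISRE are the elements through which it acts. Each window holds 300 bases around an annotated gene start, plus strand, build GRCm38.p6: chr3:142620413-142620712 for Gbp2, chr3:142559794-142560093 for the first of the starts listed for Gbp3, chr3:142496684-142496983 for Gbp5 and chr3:142530086-142530385 for Gbp7. Capitals mark matches to GAS, searched as TTCNNNGAA (which reads the same on both strands), or ISRE, searched as 2 copies of GAAA with 2 bases between them, which on the other strand reads as 2 copies of TTTC.
Gbp2: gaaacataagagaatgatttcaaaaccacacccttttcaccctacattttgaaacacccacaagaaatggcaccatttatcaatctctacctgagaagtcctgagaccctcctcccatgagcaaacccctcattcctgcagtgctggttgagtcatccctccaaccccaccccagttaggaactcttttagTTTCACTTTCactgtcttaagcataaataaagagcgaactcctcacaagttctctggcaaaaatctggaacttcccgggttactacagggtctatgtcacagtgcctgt
Gbp3: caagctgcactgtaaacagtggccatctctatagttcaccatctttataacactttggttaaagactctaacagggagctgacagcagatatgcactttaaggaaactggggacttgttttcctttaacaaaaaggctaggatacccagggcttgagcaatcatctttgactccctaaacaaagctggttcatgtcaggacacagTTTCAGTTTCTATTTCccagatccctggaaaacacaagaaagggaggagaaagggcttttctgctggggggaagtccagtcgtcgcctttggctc
Gbp5: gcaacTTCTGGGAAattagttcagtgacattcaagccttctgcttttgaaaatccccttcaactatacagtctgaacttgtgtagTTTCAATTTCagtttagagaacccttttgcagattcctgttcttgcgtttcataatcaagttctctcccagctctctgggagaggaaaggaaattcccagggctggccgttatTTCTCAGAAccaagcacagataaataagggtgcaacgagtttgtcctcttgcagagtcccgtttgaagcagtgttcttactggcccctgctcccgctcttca
Gbp7: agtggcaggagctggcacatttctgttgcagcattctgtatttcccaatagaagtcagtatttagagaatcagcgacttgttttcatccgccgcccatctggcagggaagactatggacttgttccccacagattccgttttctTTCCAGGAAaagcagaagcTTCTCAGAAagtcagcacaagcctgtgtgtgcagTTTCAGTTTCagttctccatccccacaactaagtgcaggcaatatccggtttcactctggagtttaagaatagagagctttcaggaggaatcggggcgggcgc
Gbp2 held 1 ISRE match, TTTCACTTTC, at bases −59 to −50 from the gene start. Gbp3 held 2 overlapping ISRE matches in the run TTTCAGTTTCTATTTC at −45 to −30, and its other listed start, at chr3:142560106-142560405, held no match to either motif. Gbp5 and Gbp7 held both motifs: Gbp5 an ISRE match at −165 to −156 and GAS matches at −245 to −237 and −52 to −44, and Gbp7 an ISRE match at −53 to −44 and GAS matches at −106 to −98 and −87 to −79. The GAS letters TTCTCAGAA occurred in both of these windows. Among all 32851 promoter windows of this length, 8.30% held a GAS match, 3.44% an ISRE match and 0.454% both. A match is a string of letters and no evidence of binding.

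**Figure D1:**
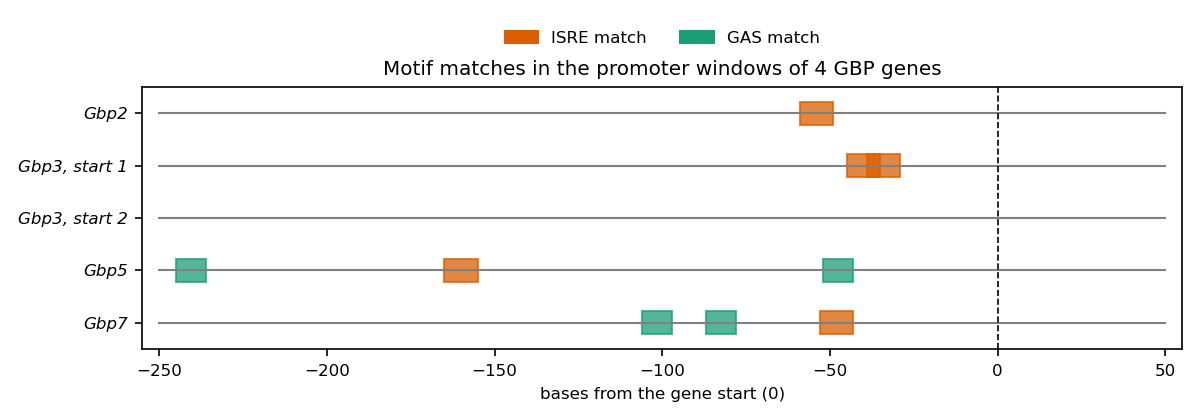
Positions of GAS and ISRE matches (coloured boxes) in the RefSeq promoter windows of the 4 members on chromosome 3, in bases from the gene start at 0. Each of the 4 genes has an ISRE match in at least 1 window, Gbp5 and Gbp7 also have 2 GAS matches each, and the other start of Gbp3 has none.

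The members differ in how well reads can be told apart between them. In the annotated transcripts no stretch of 100 bases of Gbp2 or Gbp5 occurred in another gene, and 0.929% to 10.2% of such stretches did for Gbp3, Gbp4, Gbp7, Gbp8, Gbp9 and Gbp11. Gbp6 and Gbp10 stood out: 46.7% of the 100-base stretches of Gbp6 and 57.0% of those of Gbp10 occurred elsewhere, nearly all of them in each other. With Gm43302, an annotated transcript that runs across both genes, the shares were 82.9% and 70.9%, but that row held no read in any of the 20 libraries. On the same strand, exons of Gm43302 share 1726 bases with those of Gbp6 (29.0% of its exon bases) and 1792 with those of Gbp10 (46.3%). The empty row of Gm43302 does not show how reads in these shared bases were counted. The pseudogene Gm43802 shares 637 exon bases with Gbp7 (11.35%). Annotated exons of Gbp4, Gbp8 and Gbp9 also overlap by 60 to 61 bases. The sources used here do not say how the authors' counting split or dropped such reads or whether it used strand. The levels of Gbp6 and Gbp10 are therefore uncertain, both in themselves and with respect to each other.

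In wild-type cells IFNγ raised all 10 members, where 3986 of the 13755 genes tested (29.0%) were called higher and 4115 lower (called meaning a Benjamini-Hochberg adjusted p under 0.05 by edgeR's quasi-likelihood test, with batch as a term). The members' median log2 change was 6.48, against 0.01 over all genes tested, and in each member all 5 IFNγ libraries lay above all 5 vehicle libraries. The share of all genes tested whose groups lay apart in this way was not counted, here or in the comparisons below. Together the 10 genes went from 0.00887% ± 0.0023 (SD, n = 5) of a library's counts to 0.861% ± 0.279. In bulk RNA, fewer cells expressing a gene and less RNA per cell cannot be told apart. All 10 members passed the filter on low counts, Gbp10 and Gbp11 only through their IFNγ libraries, so for these a rise was favoured by the filter. With plain totals in place of TMM the median change over all genes shifted to −0.21 and 36.7% instead of 49.2% of the calls were higher, while the 10 members remained called. Of 8 nuclear and mitochondrial transcripts taken as signs of RNA quality, 3 were called higher in wild type (median 0.79) and 3 in knockout cells (median 0.35). The shares over all genes tested were 29.0% and 21.4%, so with 8 transcripts these counts say little. The part of RNA quality in the rises was not tested.

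Gbp2, a CaaX-box member known from the defence against Toxoplasma, had the highest induced level. Its vehicle libraries stood at 10.6, 10.2, 13.8, 2.99 and 2.24 CPM, and its IFNγ libraries at 4186, 4097, 3905, 15990 and 9008 CPM. The 2 libraries lowest with vehicle and highest with IFNγ were those of batches 2 and 3. The fitted log2 change was 9.84 ± 0.71, with SE here and elsewhere back-calculated from the F statistic of the test. This was a 918-fold rise and the 9th largest of all genes tested (adjusted p = 1.8e-09 by edgeR's quasi-likelihood test). Without the IFNγ library of batch 2 the log2 change was 9.26. Within batches 1, 2 and 3 the log2 differences were 8.47, 12.36 and 11.94.

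The other chromosome 3 members rose by very different amounts. Gbp5, a CaaX-box member linked to inflammasome activation, stood at 0.861, 1.38, 1.19, 0.346 and 0.336 CPM with vehicle and 126.9, 126.4, 119.1, 193.2 and 260.7 CPM with IFNγ, a log2 change of 7.54 ± 0.40. Gbp7, linked to assembly of the phagocyte oxidase, went from 23.9 ± 9.8 to 175.7 ± 34.7 CPM (SD, n = 5), and Gbp3 from 25.3 ± 14.2 to 292.9 ± 45.8 CPM. The log2 changes of Gbp7 and Gbp3 were 2.94 ± 0.32 and 3.76 ± 0.23, so the genes with the highest basal levels had among the smallest rises. Adjusted p of these 3 genes was 2.5e-07 or less by edgeR's quasi-likelihood test.

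On chromosome 5 Gbp4 was the second most abundant member after IFNγ. It stood at 3.23, 3.04, 4.50, 7.72 and 5.72 CPM with vehicle and at 1304, 1256, 1197, 2829 and 2757 CPM with IFNγ. Its log2 change was 8.56 ± 0.54, a 379-fold rise (adjusted p = 3.1e-10 by edgeR's quasi-likelihood test), and it was similar in the 3 batches (8.45, 8.51 and 8.90). Gbp10 and Gbp11 were near 0 with vehicle, with 8 and 19 reads over 5 libraries, and reached 39.7 to 129.7 and 36.6 to 95.2 CPM. The ratio of mean CPM was 859 for Gbp10 (95% counting interval 456 to 2081; fitted log2 change 9.64, or 9.04 without vehicle replicate 5) and 297.5 for Gbp11 (190 to 492.5). These intervals cover counting error only.

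The remaining chromosome 5 members were read without IFNγ. Gbp6 rose from 4.28 ± 1.00 to 162.1 ± 34.2 CPM (log2 change 5.25 ± 0.23), and Gbp9 from 12.6 ± 1.6 to 91.0 ± 23.1 CPM (2.86 ± 0.24), the smallest rise of the family. Gbp8 differed by batch already with vehicle. Its vehicle libraries held 1.67, 2.03 and 1.93 CPM in batch 1 and 10.4 CPM in each of batches 2 and 3. With IFNγ it stood at 115.2, 117.8 and 109.1 CPM in batch 1 and at 381.9 and 344.5 CPM in batches 2 and 3, so the log2 change kept a narrow range, 5.89, 5.20 and 5.04. For each of the 10 members the exact two-sided permutation test of 5 against 5 libraries gave p = 0.0079, the smallest it allows. For Gbp10 and Gbp11, whose rise was favoured by the filter, this p is no separate support.

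**Figure D2:**
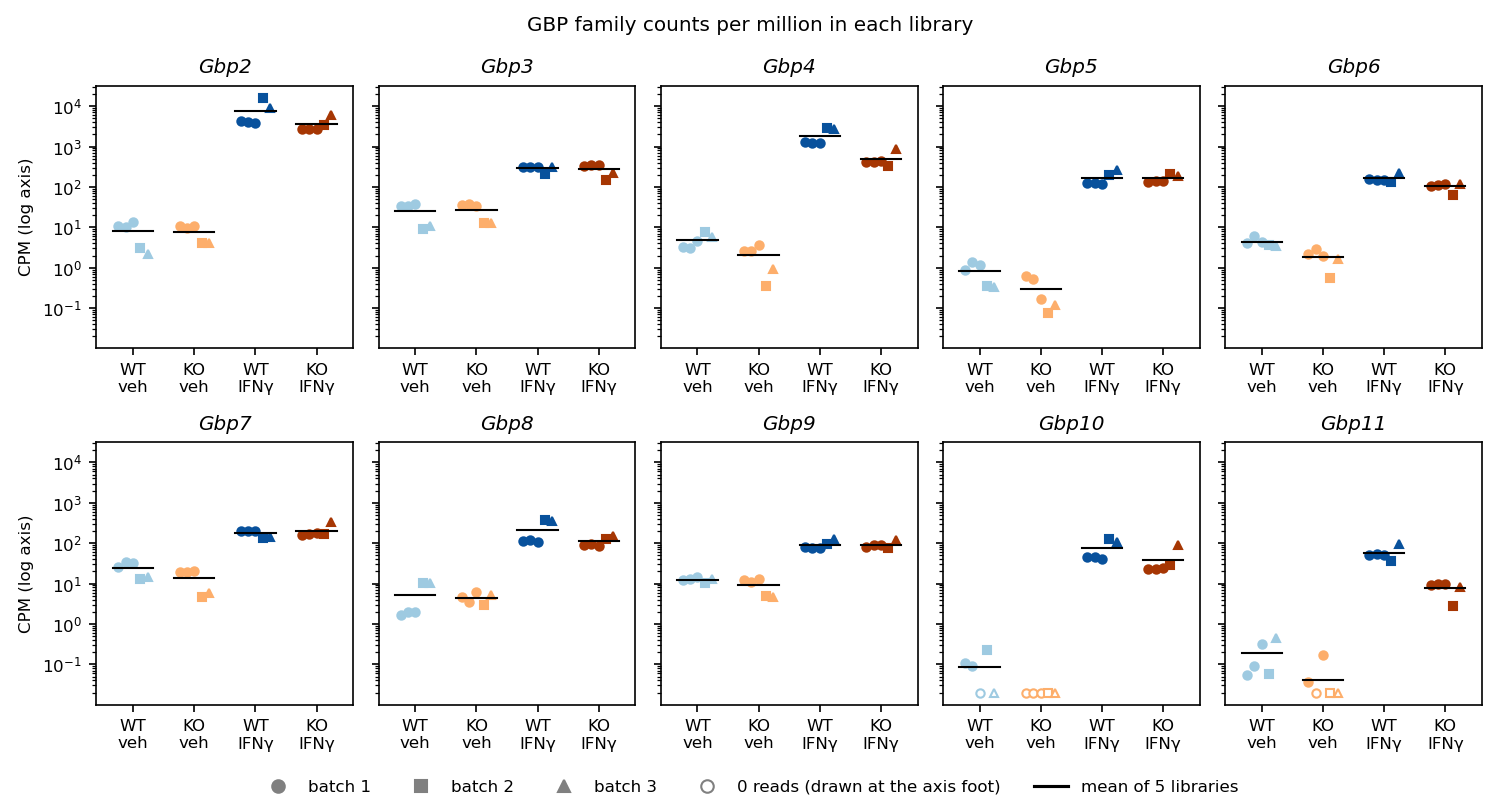
CPM of each member in each of the 20 libraries on a log axis, by group (WT, wild type; KO, knockout; veh, vehicle), with the batch as the marker's shape and the mean of 5 libraries as a bar. All IFNγ libraries lie above all vehicle libraries in every panel. Gbp4, Gbp6 and Gbp11 are the panels in which the IFNγ libraries of the genotypes do not overlap.

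Knockout cells answered IFNγ with a rise of all 10 members too, against 21.4% of genes tested called higher. For Gbp10 and Gbp11 a rise was again favoured by the filter on low counts. Their median log2 change was 6.63, against −0.02 over all genes, and no vehicle library overlapped an IFNγ library in any member. The family went from 0.00717% ± 0.0032 (SD, n = 5) to 0.488% ± 0.132 of the counts. With plain totals the median over all genes shifted to −0.16, and 38.5% instead of 49.5% of the calls were higher.

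Gbp2 rose from 10.9, 9.36, 10.8, 4.16 and 4.00 CPM to 2688, 2690, 2796, 3480 and 6129 CPM, a log2 change of 8.83 ± 0.67 (adjusted p = 7.2e-09 by edgeR's quasi-likelihood test). As in wild type, the batch 2 and 3 libraries were lowest with vehicle and highest with IFNγ. Gbp5 had the largest fitted rise among members with reads in every vehicle library, from 0.613, 0.522, 0.172, 0.0778 and 0.121 CPM to 135.6, 139.4, 138.6, 215.0 and 189.0 CPM (log2 change 9.0 ± 0.44). Gbp4 reached 410.5, 405.1, 440.1, 322.7 and 875.5 CPM from 2.63, 2.65, 3.75, 0.350 and 0.930 CPM (7.78 ± 0.53). Of these 3 genes Gbp4 alone had its lowest IFNγ value in batch 2 and its highest in batch 3.

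Gbp10 had no read in any of the 5 knockout vehicle libraries. It was at least 1591-fold higher with IFNγ, computed with 3 counts in all 5 libraries together as the floor, and the family's median was the same with Gbp10 at that bound. Gbp11 had 5 vehicle reads, 4 of them in replicate 3, and a ratio of mean CPM of 190 (counting interval 85.7 to 615.9). Without that library its fitted log2 change was 9.0 in place of 7.44. Log2 changes of the other members were 3.45 ± 0.23 for Gbp3, 5.83 ± 0.24 for Gbp6, 4.07 ± 0.34 for Gbp7, 4.51 ± 0.37 for Gbp8 and 3.36 ± 0.25 for Gbp9. The calls of all 10 members in both genotypes held in each of the 31 alternative settings.

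With vehicle 5 members were called lower (Gbp5, Gbp6, Gbp7, Gbp10 and Gbp11) and none higher, where 14.8% of genes tested were called lower. Gbp10 and Gbp11 passed the filter only through their IFNγ libraries, and their calls with vehicle rest on few reads. With both included, the members' median log2 difference, knockout minus wild type, was −0.98, against 0.03 over all genes. Gbp6 was the member with groups that did not overlap: 4.14, 5.94, 4.31, 3.57 and 3.42 CPM in wild type, against 2.17, 2.97, 1.98, 0.544 and 1.62 CPM in knockout. Its log2 difference was −1.26 ± 0.23 (adjusted p = 0.00033 by edgeR's quasi-likelihood test; exact two-sided permutation p = 0.0079, the smallest possible), with −1.0, −2.61 and −1.06 in batches 1, 2 and 3, and its call held in 31 of 31 alternatives.

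The other 4 calls were close to the threshold. The quasi-likelihood test of edgeR gave an adjusted p of 0.041 for Gbp5 (log2 difference −1.46 ± 0.52), 0.046 for Gbp7 (−0.83 ± 0.30), 0.039 for Gbp10 (8 reads in wild type against 0 in knockout) and 0.043 for Gbp11 (19 reads against 5). For these 4 genes the genotypes' ranges over all batches overlapped. The exact two-sided permutation test, which takes no account of batch, gave p of 0.063, 0.14, 0.17 and 0.056. Their calls held in 22, 19, 19 and 21 of 31 alternatives. Within each batch every knockout library of Gbp5 and Gbp7 lay below every wild-type library. Leaving out any of wild-type vehicle replicates 1, 2 and 3 left 2 members called, leaving out wild-type vehicle replicate 4 or knockout vehicle replicate 1 or 2 left 3, and leaving out knockout vehicle replicate 4 or 5 left Gbp6 alone. Without knockout vehicle replicate 3 the fitted log2 difference of Gbp11 was −3.67 in place of −2.12.

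Gbp4 and Gbp8 differed between batches in this comparison. Gbp4 was 2.63, 2.65 and 3.75 CPM in knockout and 3.23, 3.04 and 4.50 CPM in wild type in batch 1, but 0.350 against 7.72 CPM in batch 2 and 0.930 against 5.72 CPM in batch 3. Within batches its log2 differences were −0.25, −4.28 and −2.56, and over all libraries −1.13 ± 0.46 (adjusted p = 0.072 by edgeR's quasi-likelihood test). The exact two-sided permutation p of Gbp4 was 0.04, and it was called in 6 of 31 alternatives, limma-voom among them. Gbp8 changed side: knockout libraries held 4.73, 3.57 and 6.07 CPM in batch 1, above wild type, and 3.03 and 5.09 CPM in batches 2 and 3, below it. It was called higher in batch 1 alone (1.33) and lower in batches 2 and 3 alone (−1.37, adjusted p = 0.011 by edgeR's quasi-likelihood test). For Gbp2, Gbp3 and Gbp9 the test made no call, with 95% intervals of the log2 difference of −1.08 to 1.02, −0.30 to 0.57 and −0.98 to 0.0023.

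With IFNγ, 4 members were lower in knockout than in wild-type cells (Gbp4, Gbp6, Gbp10 and Gbp11) and none was called higher, where 19.0% of genes tested (2609) were called lower and 2754 higher. All 4 lie on chromosome 5. The members' median log2 difference was −0.72, against 0.01 over all genes. With plain totals the median over all genes shifted to 0.13 and 62.4% instead of 51.4% of calls were higher, and the same 4 members were called lower. In Gbp4, Gbp6 and Gbp11 the 5 knockout libraries all lay below the 5 wild-type libraries (exact two-sided permutation p = 0.0079 for each, the smallest possible). For Gbp10 the exact two-sided permutation p was 0.12, in a test that takes no account of batch. Within each batch its knockout libraries lay below the wild-type libraries.

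Gbp11 had the largest difference. The wild-type IFNγ libraries stood at 52.2, 53.1, 52.3, 36.6 and 95.2 CPM and the knockout IFNγ libraries at 9.02, 9.89, 9.59, 2.78 and 8.32 CPM. Every knockout library thus lay well below the lowest wild-type library. The fitted log2 difference was −2.90 ± 0.28, 7.47-fold lower (adjusted p = 1.4e-07 by edgeR's quasi-likelihood test), with −2.46, −3.70 and −3.51 in batches 1, 2 and 3.

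Gbp4 was second, at 1868 ± 845 CPM in wild type against 490.8 ± 219 CPM in knockout cells (SD, n = 5). Its library values, given above, did not overlap, although the highest knockout library, 875.5 CPM, came from batch 3. The log2 difference was −1.92 ± 0.40, 3.79-fold lower (adjusted p = 0.00076 by edgeR's quasi-likelihood test), and −1.58, −3.13 and −1.66 within batches. Gbp4 and Gbp11 stayed called in 31 of 31 alternatives, with ranges of −2.36 to −1.56 and −3.64 to −2.44.

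Gbp6 and Gbp10, the pair that shares most sequence, differed less. Gbp6 stood at 154.6, 150.5, 152.3, 132.1 and 221.3 CPM in wild type, with knockout libraries at 105.5, 112.5, 119.7, 63.9 and 116.8 CPM (log2 difference −0.68 ± 0.19, adjusted p = 0.0077 by edgeR's quasi-likelihood test). Gbp10 stood at 45.7, 44.6, 39.7, 129.7 and 109.8 CPM in wild type, with knockout libraries at 22.6, 23.4, 24.1, 29.1 and 89.7 CPM (−1.0 ± 0.25, adjusted p = 0.0042). The ranges of Gbp10 overlapped through knockout replicate 5 alone, which lay inside the wild-type range. Without a batch term neither gene was called (adjusted p = 0.080 for Gbp6 and 0.13 for Gbp10), and with batches 2 and 3 alone Gbp10 was not called (adjusted p = 0.13).

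The libraries that stood apart in TMM factor and Malat1 lie in batches 2 and 3 of both IFNγ groups. In batch 1 alone, where TMM factors of the IFNγ libraries were 1.04 to 1.06, the log2 differences were −1.56 for Gbp4, −0.41 for Gbp6, −0.87 for Gbp10 and −2.44 for Gbp11, each called, as were 69.3% of all genes tested in that fit (adjusted p of 5.8e-06 or less by edgeR's quasi-likelihood test with 3 libraries per group). The 3 libraries of a group lay close together there, and the remaining members were called too: Gbp2 (−0.55), Gbp7 (−0.21) and Gbp8 (−0.30) lower and Gbp3 (0.17), Gbp5 (0.18) and Gbp9 (0.22) higher. Malat1 in those batch 1 libraries still differed by genotype, 355.5 to 385.7 CPM against 56.0 to 62.7 CPM in knockout, and its part in the result was not tested. Of the 8 transcripts used as signs of RNA quality, 5 were called lower in knockout than in wild-type cells with IFNγ (median −1.09), and none with vehicle. The shares of all genes tested called lower were 19.0% with IFNγ and 14.8% with vehicle.

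Among members not called with IFNγ, Gbp2 had the largest difference, 7438 ± 5241 CPM in wild type against 3557 ± 1475 CPM in knockout cells, or −1.04 ± 0.49 on the log2 scale (adjusted p = 0.099 by edgeR's quasi-likelihood test). Its wild-type library of batch 2 alone made a within-batch difference of −2.20, against −0.58 and −0.56 in batches 1 and 3, and without that library the fitted difference was −0.39. Gbp8 stood at −0.75 ± 0.32 (adjusted p = 0.066), and DESeq2 and limma-voom both called it lower (adjusted p = 0.047 and 0.0076); it was called in 7 of 31 alternatives. For the remaining 4 the estimates lay near 0, with 95% intervals of −0.60 to 0.25 for Gbp3, −0.58 to 0.59 for Gbp5, −0.32 to 0.91 for Gbp7 and −0.46 to 0.47 for Gbp9. Gbp3, Gbp5 and Gbp7 lie on chromosome 3 and Gbp9 on chromosome 5.

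**Figure D3:**
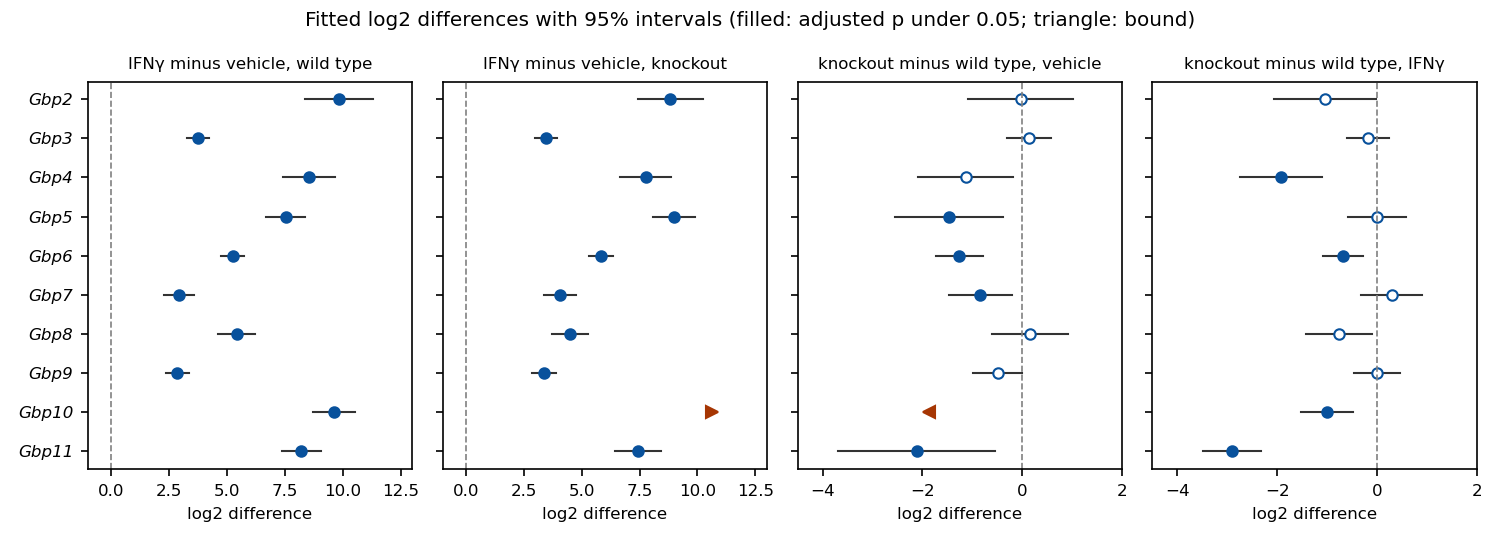
Fitted log2 differences of each member in 4 comparisons, with 95% intervals as lines; filled circles passed an adjusted p of 0.05 and open circles did not. Triangles give the bound of Gbp10 in the comparisons with knockout vehicle libraries, which hold no read of it. All 10 members lie right of 0 in the IFNγ panels, and no filled circle lies right of 0 in the genotype panels.

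**Figure D4:**
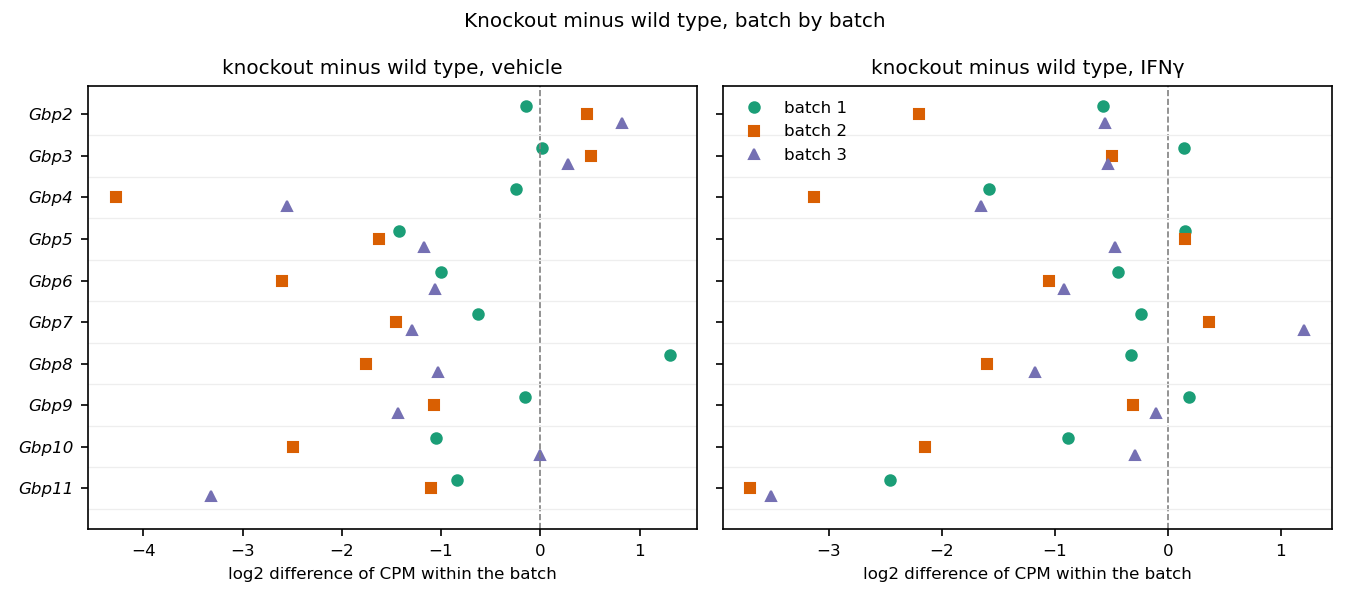
Knockout minus wild type, as the log2 difference of CPM (0.05 CPM added) within each batch, with vehicle (left) and IFNγ (right); batch 1 is a mean of 3 libraries per group and batches 2 and 3 are 1 library each. With IFNγ the called members Gbp4, Gbp6, Gbp10 and Gbp11 lie left of 0 in all 3 batches, as do Gbp2 and Gbp8, which were not called, and Gbp8 with vehicle lies right of 0 in batch 1 and left of it in batches 2 and 3.

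The direct test of whether IFNγ acted differently in the genotypes, the knockout response minus the wild-type response, called none of the 10 members, where 6.50% of genes tested were called. At an unadjusted p under 0.05 edgeR's quasi-likelihood test counted 3 members (Gbp5, Gbp7 and Gbp10), DESeq2 4 and limma-voom 2, and neither of these tools called a member after adjustment. The members' median was 0.09, against 0.02 over all genes. The estimate for Gbp5 was 1.47 ± 0.59 (adjusted p = 0.15) and for Gbp7 1.13 ± 0.42 (adjusted p = 0.12), both in the direction of a larger response in knockout cells from a lower vehicle level. For Gbp4 it was −0.79 ± 0.59 (adjusted p = 0.48) overall but −1.33, 1.15 and 0.90 within batches 1, 2 and 3. For Gbp11 it was −0.78, with a 95% interval of −3.26 to 1.69 that reflects the few vehicle reads, and for Gbp10 the fitted 3.05 ± 1.35 is set by how a group with 0 reads is handled. With every gene of at least 1 read tested, 5 members passed (Gbp5 and Gbp7 higher, Gbp2, Gbp4 and Gbp8 lower), where 4.51% of the genes so tested were called, so the count of 0 depends on the filter on low counts.

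The make-up of the family changed more with IFNγ than with genotype. In wild-type vehicle libraries Gbp3 and Gbp7 held 27.6% ± 10.0 and 27.1% ± 4.1 of the members' counts (SD, n = 5), Gbp9 15.6% ± 3.8 and Gbp2 8.49% ± 3.84. With IFNγ Gbp2 held 67.5% ± 6.9 and Gbp4 18.7% ± 2.6 in wild type, and Gbp2 69.6% ± 4.7 and Gbp4 9.62% ± 1.51 in knockout cells. The share of Gbp4 was 14.1% to 20.6% in the wild-type and 6.96% to 10.6% in the knockout IFNγ libraries, so these ranges did not overlap, while those of Gbp2 did. In knockout vehicle libraries Gbp3 led with 40.3% ± 3.1, followed by Gbp7 with 19.7% ± 3.5.

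**Figure D5:**
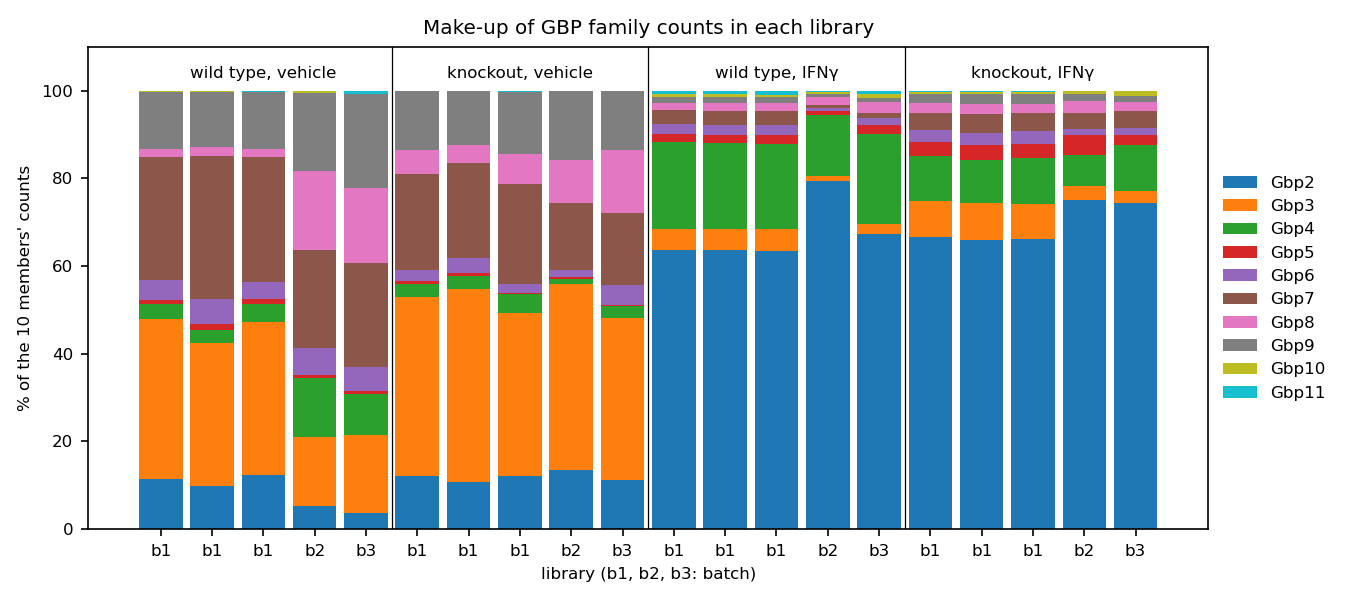
Share of each member in the summed counts of the 10 members, in % (stacked bars), for each of the 20 libraries by group and batch. Gbp3, Gbp7 and Gbp9 fill most of the vehicle bars and Gbp2 and Gbp4 most of the IFNγ bars, with a thinner Gbp4 band in knockout than in wild-type IFNγ libraries.

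Levels of different genes were compared per kilobase of the longest annotated coding transcript. Genes are called separate where their ranges over the 5 libraries of a group do not overlap. Genes that overlap in this way can still keep the same order within each library. In wild-type cells with IFNγ the order was Gbp2 (2956 ± 2083 CPM per kb; SD, n = 5), Gbp4 (412 ± 186), Gbp3 (109 ± 17), Gbp8 (86.9 ± 55.8), Gbp6, Gbp5, Gbp7, Gbp11, Gbp10 and Gbp9 (20.8 ± 5.3). Gbp2 was separate from Gbp4, and Gbp4 from Gbp3, in all libraries, while each later neighbour overlapped the next except Gbp5 and Gbp7. In knockout cells with IFNγ Gbp2 (1414 ± 586) was again separate, Gbp4 (108 ± 48) and Gbp3 (104 ± 33) overlapped, and Gbp11 came last (2.94 ± 1.09), separate from Gbp10 (10.7 ± 8.3). Gbp7 and Gbp9 were the other neighbours there that did not overlap. With vehicle Gbp3 led in both genotypes (9.44 ± 5.30 in wild type and 10.0 ± 4.8 in knockout), overlapping Gbp7 in wild type and separate from Gbp2, its neighbour, in knockout. Gbp5, Gbp11 and Gbp10 were the lowest in both genotypes with vehicle, at 0.270 CPM per kb or less. On the length of all exons instead, some neighbours changed places, among them Gbp4 and Gbp3 in knockout cells with IFNγ and Gbp6, Gbp5 and Gbp7 in wild type with IFNγ.

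The genes whose log2 CPM over the 20 libraries lay closest to the members' mean z score were Tgtp2, Tap1, Slamf8, Igtp, Irgm1, Iigp1, Trafd1 and Irf1, with Pearson's r of 0.984 to 0.995. The members themselves had r of 0.948 (Gbp8) to 0.992 (Gbp6), which is raised because each is part of that mean. These points share groups, batches and depth, and the values are a description.

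Other interferon-inducible GTPases were the nearest list to the members. In wild type IFNγ raised 12 of 14 and lowered none, with a median of 4.32, and in knockout cells it raised 13 of 14 (median 4.68). The shares of all genes tested that were called higher were 29.0% and 21.4%. Tgtp2, an immunity-related GTPase of vacuole coats, rose from 1.46 to 672.5 CPM in wild type (knockout cells: 0.980 to 600.8 CPM). In knockout against wild type 5 of 14 were lower with vehicle, among them Gm12250 (−1.40 ± 0.28) and the antiviral Mx1 (−1.67 ± 0.46). The share of all genes tested called lower there was 14.8%. With IFNγ Igtp (−0.82 ± 0.22) and Gbp2b (−1.46 ± 0.43) were lower and Tgtp1 (1.20 ± 0.30) higher. Gbp2b is the member of the chromosome 3 cluster also called mouse Gbp1. It had no read in wild-type vehicle libraries, and with IFNγ stood at 1.49, 1.54, 1.55, 10.5 and 3.09 CPM in wild type, with knockout libraries at 0.585, 1.09, 0.899, 1.87 and 0.640 CPM. Tgtp1 lost its call with DESeq2 and in batches 2 and 3 alone, with log2 differences of 1.72, −0.54 and 1.43 within batches 1, 2 and 3, and Igtp lost its call without a batch term and in batches 2 and 3 alone. The calls for Gm12250 and Mx1 were lost without a batch term. The call for Gbp2b was lost without wild-type IFNγ replicate 4 (−1.17, adjusted p = 0.058), in batch 1 alone and in batches 2 and 3 alone (its range over all alternatives was −2.39 to −0.80). Adjusted p of the calls named for Gm12250, Mx1, Igtp, Gbp2b and Tgtp1 was 0.012 or less by edgeR's quasi-likelihood test.

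In the list of IFNγ signalling to the GBP genes, 12 of 15 rose and 1 fell in wild-type cells, and 11 rose and 1 fell in knockout cells. Of all genes tested 29.0% and 21.4% were called higher. Irf1, the factor that binds ISRE, rose by 5.05 ± 0.34 on the log2 scale in wild type and 4.68 ± 0.33 in knockout cells, and Irf8 by 3.22 ± 0.35 and 3.96 ± 0.36. Ifngr1, a receptor chain, fell by 0.76 and 0.56. Between genotypes 6 of 15 were lower with vehicle and 1 higher (Ifngr2, the other receptor chain), where 14.8% of genes tested were called lower. With IFNγ 6 were lower and none higher, where 19.0% of genes tested were called lower. Jak2 was lower in both (−1.43 ± 0.22 and −1.44 ± 0.22) and Jak1 with IFNγ (278 against 611 CPM, −1.13 ± 0.21), while Irf1 was not called in either, with a 95% interval with IFNγ of −0.98 to 0.20. The responses of Jak1 (−1.10 ± 0.29) and Batf2 (3.36 ± 0.44) were called different between genotypes. Batf2 means with vehicle were 3.44 CPM in wild type and 0.257 CPM (33 reads) in knockout, and with IFNγ 50.3 and 40.3 CPM. Adjusted p of the called values was 0.027 or less by edgeR's quasi-likelihood test, and the Jak1 response lost its call without 8 of the single libraries (wild-type vehicle replicates 4 and 5, knockout vehicle replicates 1 to 3 and knockout IFNγ replicates 1 to 3).

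Lists of genes that GBPs work with, and of dynamin relatives, were counted in the same way. For comparison, 29.0% of all genes tested were called higher with IFNγ in wild type and 21.4% in knockout cells. Called lower were 4115 and 3000 of the 13755 genes tested. A list as short as the 9 dynamin relatives can reach its counts at these shares, and no list was tested as a set. Of 11 inflammasome and pyroptosis partners tested 8 rose and 2 fell in wild type, and 8 rose and 1 fell in knockout cells. Zbp1, a sensor of nucleic acids that triggers cell death, rose most in this list, by 3.34 ± 0.37 and 4.42 ± 0.39 on the log2 scale. Casp4, the sensor of cytosolic lipopolysaccharide, rose by 2.04 ± 0.17 and 1.47 ± 0.17 and was lower in knockout with IFNγ (−0.64 ± 0.17, adjusted p = 0.0047 by edgeR's quasi-likelihood test). Gsdmd, the pore former of pyroptosis, rose by 0.62 ± 0.20 and 0.69 ± 0.19. In wild type its call was lost without IFNγ replicate 4 or 5, in batch 1 alone and on plain totals. Batch 1 of wild type averaged 95.2 CPM with vehicle and 100.8 CPM with IFNγ, while the IFNγ libraries of batches 2 and 3 held 301.2 and 191 CPM. In knockout cells the call for Gsdmd was lost in batches 2 and 3 alone. Of 15 autophagy genes 11 rose in wild type and 10 in knockout cells, and none fell, with Sqstm1 at 2.06 ± 0.11 and 1.15 ± 0.11, a difference of responses that was called (−0.90 ± 0.15, adjusted p = 0.0014). Of 10 genes of CaaX prenylation and processing 2 rose and 7 fell in wild type, and 3 fell in knockout cells, with Fdps, which makes the precursor of the lipid anchors, at −2.61 ± 0.24 and −0.83 ± 0.23. Of 6 ubiquitin ligases of vacuole coats 4 and 5 rose. Of 9 other dynamin relatives tested 3 rose and 4 fell in wild type, and 1 rose and 3 fell in knockout cells, all by under 1 log2.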

How the data were processed

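The authors deposited a table of raw read counts per Ensembl gene for 20 libraries. Per the submitters' processing notes FastQC, Trim Galore, STAR, DESeq2 and build GRCm39 were used; which tool counted reads, with which strand option and annotation, is not given in the sources used here. Symbols came from a table of gene names, which matched 91.23% of rows.

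Genes were kept with edgeR's filterByExpr (13755 of 56941 rows; 28314 had no read), scaled by TMM and tested with edgeR 4.0.16 in R 4.3.3 (quasi-likelihood, 1 term per group plus batch, 14 residual degrees of freedom, Benjamini-Hochberg over all genes tested, threshold 0.05). CPM are on TMM-scaled totals unless stated. The comparisons share groups, so they are not independent of each other. Alternatives were other scalings and filters, DESeq2 1.42.0, limma-voom (limma 3.58.1), other batch terms, batches apart and each library left out. The fit was tested on simulated data. Single values were compared by exact two-sided permutation over 252 splits, which took no account of batch. Floors are 3 counts over a group. Sharing of sequence and transcript lengths came from GENCODE vM21, whose build (GRCm38) differs from that of the counts, so no gene coordinates were taken from it.

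Same-numbered libraries did not deviate together within batch 1 (correlations −0.04 to 0.04), so numbers were not taken as pairs. Replicates of a group differed by more than sampling noise. Chi-square per degree of freedom was 3.69 to 14.37 between replicates of batch 1 and 15.24 to 397.4 between replicates of different batches. Replicates of batch 1 thus lay closer to each other than replicates of different batches did. The quasi-likelihood and permutation tests count every library as a separate unit. If the libraries of batch 1 are not independent, p-values of these tests can be too small. The members and gene lists were chosen with earlier results of these data known. Named were all members, up to 2 called genes each way per list and comparison by smallest p, a fixed set (among them Gbp2b, Irf1, Irf8, Casp4, Gsdmd and Rgs10; 1 further gene is not reported here) and the 8 genes most like the members' mean z score. Of the named genes those that bear on the members are given.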

Additional observations from a re-analysis of the deposited data

Results flagged for a closer look

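In 10 of the 39 sets of 5 libraries tested (a member in a group), 1 library lay far from the other 4 by Dixon's criterion. Its chance rate of about 1 in 20 holds for 5 libraries of a kind. Here replicates 1 to 3 share a batch and lie close together, so that rate does not apply. In knockout cells with IFNγ, replicate 5 was high in Gbp2 (6129 CPM, others 2688 to 3480), Gbp4 (875.5 CPM, others 322.7 to 440.1), Gbp7 (333.6 CPM, others 161.2 to 176.1) and Gbp10 (89.7 CPM, others 22.6 to 29.1). Replicate 4 of that group was low in Gbp6 (63.9 CPM, others 105.5 to 119.7) and Gbp11 (2.78 CPM, others 8.32 to 9.89). In wild-type cells with IFNγ, replicate 5 was high in Gbp6 (221.3 CPM) and Gbp11 (95.2 CPM) and replicate 4 low in Gbp3 (211.8 CPM). The remaining case was replicate 3 of knockout vehicle, with 0.172 CPM of Gbp11, or 4 reads. The IFNγ libraries named here are all from batches 2 and 3, each of which has 1 library per group.

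In 4 cases the genotypes did not overlap in batch 1 and the knockout minus wild type difference had the opposite sign in both other batches; the difference between batches was not tested. With IFNγ the batch 1 values were 0.14 for Gbp3, −0.24 for Gbp7 and 0.19 for Gbp9 on the log2 scale, and with vehicle 1.30 for Gbp8. The difference of Gbp2 with vehicle also changed sign (−0.14, 0.47 and 0.82 in batches 1, 2 and 3), but its batch 1 libraries overlapped between genotypes.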

How the results depend on the processing

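The calls of all 10 members for IFNγ in both genotypes, of Gbp4 and Gbp11 between genotypes with IFNγ and of Gbp6 with vehicle held in all 31 alternatives. The cause of the changes below was not tested. Genes called for the difference of responses (894) numbered 537 on plain totals, 1480 with DESeq2, 138 without a batch term, 530 with the replicate block, 7096 in batch 1 alone, 121 in batches 2 and 3 alone and 542 to 1448 with 1 library left out. Without a batch term 3897 genes were called for IFNγ in knockout and 2318 between genotypes with vehicle. Batch 1 alone gave 8072 (vehicle) and 9580 (IFNγ) between genotypes, and batches 2 and 3 alone 847, 1920 and, for IFNγ in wild type, 5101. Members called lower in knockout with vehicle numbered 2 without a batch term, 1 with the replicate block and 1 to 6 with 1 library left out, and 1 was higher in batch 1 alone. With IFNγ 2 were lower without a batch term, and 7 lower and 3 higher in batch 1 alone. For the difference of responses, 2 members were higher and 3 lower without a filter, 4 higher and 3 lower in batch 1 alone, and 1 higher in batches 2 and 3 alone. The replicate block changed no other member count by over 1.5 times.

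Some differences that were not called changed sign. For knockout against wild type with IFNγ, Gbp5 was −0.019 by relative log expression, −0.0025 with at least 1 CPM in 5 libraries, −0.042 with DESeq2, −0.015 without a batch term, −0.17 in batches 2 and 3 alone and −0.15 to 0.26 with 1 library left out. In the same order Gbp9 was −0.021, −0.0048 and −0.023, then −0.22 in batches 2 and 3 alone and −0.11 to 0.18. Gbp3 was 0.0037 on plain totals, 0.17 (adjusted p = 0.0050 by edgeR's quasi-likelihood test) in batch 1 alone and −0.28 to 0.075 with 1 library left out, and Gbp7 −0.21 in batch 1 alone and −0.14 to 0.45. With vehicle Gbp2 was 0.048 on plain totals, 0.082 with limma-voom, 0.65 in batches 2 and 3 alone and −0.31 to 0.26 with 1 library left out. Gbp8 was −0.094 with limma-voom, −0.22 without a batch term, −1.37 (adjusted p = 0.011 by the same test) in batches 2 and 3 alone and −0.085 to 0.49, and Gbp3 −0.010 to 0.25. For the difference of responses Gbp3 was 0.15 in batch 1 alone, Gbp4 1.12 and Gbp11 1.58 in batches 2 and 3 alone, Gbp11 −1.21 to 0.78 with 1 library left out, and Gbp10 −8.3e-06 with a prior count of 2 in place of 3.05, both set by how 0 reads are handled. Depth limits Gbp10 and Gbp11 with vehicle, where a group held 0 to 19 reads.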
